A study of Homo sapiens with 16 samples.

Results

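The genes described here are the noncoding host genes of small nucleolar RNAs (snoRNAs), taken by name as every gene whose symbol starts with SNHG and a digit, together with GAS5, ZFAS1, EPB41L4A-AS1, DANCR and CYTOR. This rule found 33 genes among the 58302 listed, all of type long noncoding RNA in GENCODE v44, and it used no measured value. They were followed in the established human embryonic kidney line HEK293, in 4 groups of 4 libraries. Input libraries were made from RNA of whole cytoplasmic lysates, and Polysome libraries from the pooled heavy fractions of sucrose gradients, after cycloheximide had been added to hold ribosomes on the RNA. The siRNAG5 cultures had received a small interfering RNA against Gemin5 at 100 nM. The Ctrl cultures had not, and the labels call them untreated where the study's methods describe a control siRNA. All groups share the cell line, the cycloheximide and the selection of polyadenylated RNA. Gemin5 is an RNA-binding protein of the SMN complex, which loads Sm proteins onto spliceosomal RNAs. The comparisons ask how the level of each host RNA, and its Polysome level relative to Input, differ when Gemin5 is silenced.

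In human cells most snoRNAs are cut from introns of longer transcripts. Box C/D snoRNAs guide 2′-O-methylation and box H/ACA snoRNAs guide pseudouridylation of ribosomal RNA, and many of their hosts are ribosomal protein genes or noncoding genes of the SNHG kind. The spliced host RNA, which is what poly(A) selection collects, has only short open reading frames, is known in several cases to be bound by ribosomes and degraded by nonsense-mediated decay (NMD), and in some cases starts with a 5′ terminal oligopyrimidine tract (TOP), the element shared by ribosomal protein mRNAs. A host RNA in the heavy part of a gradient is an RNA that sediments with polysomes, and sedimentation alone does not show that it is translated.

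The annotated starts are shown for the hosts whose levels carry the results given further on. RefSeq (GRCh38.p14) gave a promoter and start sequence for 29 of the 33 genes. A tract was counted where the annotated first base is a C followed by at least 4 pyrimidines, read on the strand of the gene. Such a start was present in 7 of the 29 hosts (24.1%), in 49 of 87 cytosolic ribosomal protein genes (56.3%), in 142 of 4127 other long noncoding genes (3.44%) and in 1429 of all 35116 sequences (4.07%). The 6 of these hosts with enough reads to test begin as follows, with 10 bases before the start, 20 bases from it, and the tract in capitals.
SNHG5 (chr6:85678714-85678743, minus strand): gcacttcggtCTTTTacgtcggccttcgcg
SNHG19 (chr16:2155339-2155368, minus strand): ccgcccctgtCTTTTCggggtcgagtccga
SNHG32 (chr6:31834906-31834935, plus strand): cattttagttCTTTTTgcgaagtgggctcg
ZFAS1 (chr20:49278632-49278661, plus strand): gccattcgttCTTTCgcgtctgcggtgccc
SNHG12 (chr1:28581854-28581883, minus strand): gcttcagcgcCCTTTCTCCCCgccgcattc
SNHG4 (chr5:139274091-139274120, plus strand): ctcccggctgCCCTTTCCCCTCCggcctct
The seventh, SNHG18, had no read in any library. The annotated start differs between catalogues. At the start of the canonical GENCODE v44 transcript, read from the GRCh38 genome, 4 of the 33 hosts (12.1%) had a tract, against 62 of 89 ribosomal protein genes (69.7%) and 1723 of 62700 genes (2.75%). These were ZFAS1 at the same base as in RefSeq, SNHG12 at another base, and GAS5 and SNHG29, which are shown because they are the most abundant hosts and have no tract at their RefSeq start.
GAS5 (chr1:173867970-173867999, minus strand): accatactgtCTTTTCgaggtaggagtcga
SNHG29 (chr17:16439027-16439056, plus strand): aaggtgtgacCTTTTCattcccgttgttat
The RefSeq start of GAS5 lies upstream of the span that GENCODE gives the gene, and reads as follows, with no tract and so no capitals.
GAS5 (chr1:173869026-173869055, minus strand): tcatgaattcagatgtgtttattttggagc
With the tract allowed to begin anywhere from 10 bases before to 10 after the RefSeq base, 17 of the 29 hosts (58.6%) and 11755 of all sequences (33.5%) held one. A match describes the letters of this window and says nothing of what binds there.

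Each library held from 11145324 to 24511299 gene reads. GEMIN5, the targeted gene, measured 15.9, 18.9, 16.01 and 20.7 normalised CPM (reads scaled to a common library size with TMM factors) in the Input Ctrl libraries 1 to 4 and 7.46, 6.51, 6.22 and 6.68 in Input siRNAG5, with a log2 FC of −1.40 (SE 0.12, adjusted p = 6.00e-12). In Polysome it measured 5.5, 7.21, 7.76 and 9.28 CPM in Ctrl and 2.1, 3.08, 3.05 and 2.35 in siRNAG5, with a log2 FC of −1.44 (SE 0.21, adjusted p = 0.00487). All 6 HEK293 marker genes had reads in every library. The 13 liver marker genes summed to 146 and 128 CPM in Input Ctrl 3 and 4 and to 78.8 to 163 CPM in the 4 Polysome Ctrl libraries, where each of the 13 had reads. In the other libraries they summed to at most 2.59 CPM, with 3 to 5 of the 13 detected and ALB at 0 to 2 reads. The 6 blood markers summed to 3.71 to 6.14 CPM in Polysome Ctrl, to 0.539 to 0.876 in Polysome siRNAG5 and to at most 2.37 in Input. Brain marker sums stayed at or under 3.64 CPM. Reads that aligned to several places made up 4.88 to 6.04% of Input and 21.2 to 42.4% of Polysome libraries, and were not counted on genes. The part of the liver, blood and uncounted reads in the results was not tested, beyond fits without Input Ctrl 3 and 4. The liver markers summed to 0.371 to 0.876 CPM in the Polysome siRNAG5 libraries. Liver and blood sums there were both below every Polysome Ctrl library, so that in Polysome the level of these reads and the treatment cannot be told apart.

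Of the 33 hosts, 27 had enough reads to be tested in at least one comparison. The other 6 were SNHG31 with 50 reads over the 16 libraries, SNHG28 with 24, SNHG22 with 5, SNHG14 with 2, and SNHG18 and SNHG27 with 0, which allows up to 3 reads over all libraries for each of the last 2. SNHG14, the host of the SNORD115 and SNORD116 arrays, is known for its expression in neurons. RefSeq or GENCODE annotate at least 1 snoRNA inside 32 of the 33 genes, and CYTOR has none in either. The snoRNAs themselves were hardly counted. The libraries were poly(A)-selected, and reads that fell on more than 1 gene were not counted. The part of either in these low counts was not tested. GENCODE lists 145 snoRNA entries on the host strand, Cajal body RNAs included, 84 of these in SNHG14, and 129 had no read at all. None of these entries lies in GAS5, whose 11 snoRNAs are given by RefSeq alone and were not looked up in the counts. The 145 together had 367 reads over the 16 libraries, 206 of them on SNORD104 in SNHG25, so the values that follow are those of the host RNAs and say nothing of the mature snoRNAs.

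By GENCODE, 13 of the hosts overlap another gene on their own strand and 20 overlap one on the other strand. Whether strand was used in counting is not given in the sources used here, so reads of such pairs may be mixed.

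The hosts differed widely in level. Per kilobase of the canonical transcript, SNHG29 stood highest in Input Ctrl at 1670 CPM per kb, followed by GAS5 at 659, SNHG5 at 530.4 and SNHG16 at 333. At the other end of the tested hosts were SNHG26 at 1.74 and SNHG4 at 0.669 CPM per kb. This order rests on which transcript is called canonical, while reads were counted per gene. The canonical length was 443 bases for SNHG29 and 6166 for SNHG8, where all annotated exons cover 8947 and 6614. On the same per-kilobase scale, GAS5 moved up to 1374 in Input siRNAG5, still under SNHG29 at 2033. The 33 hosts together made up 0.265 ± 0.0135% of the gene reads in Input Ctrl and 0.359 ± 0.0167% in Input siRNAG5 (SD, n = 4 each). Their summed level was 3500 ± 149 and 4362 ± 266 CPM in these groups, where the groups did not overlap, with Ctrl libraries from 3315 to 3660.5 and siRNAG5 libraries from 4099 to 4666. GAS5 alone, at 506 ± 67.0 and 1055 ± 83.4 CPM, made up most of this increase, while the estimate was negative for 17 of the 27 tested hosts. In Polysome the sum was 1341 ± 284 CPM in Ctrl and 1104 ± 410.0 in siRNAG5, and these groups overlapped. The order of the last pair depends on the scaling, since as a share of gene reads the hosts made up 0.147 ± 0.0216% in Polysome Ctrl and 0.156 ± 0.0430% in Polysome siRNAG5.

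**Figure D1:**
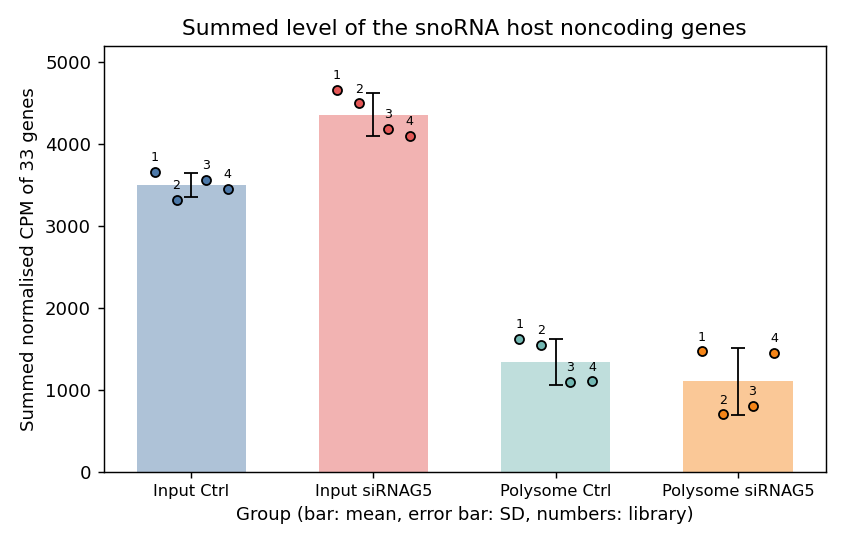
Summed normalised CPM of the 33 snoRNA host noncoding genes (vertical axis, from 0) in the 4 groups (horizontal axis). Bars are means, error bars SD of 4 libraries, points the libraries with their numbers. Input siRNAG5 lies above Input Ctrl in every library, both Polysome groups lie below both Input groups, and each Polysome group holds 2 higher and 2 lower libraries. As a share of reads, without the scaling, the mean of Polysome siRNAG5 is the higher of the 2 Polysome groups.

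The first comparison asks which host RNAs changed in the cytoplasmic lysate when Gemin5 was silenced. GAS5, SNHG32, EPB41L4A-AS1 and SNHG1 rose, by 1.76 to 2.11 fold, and DANCR and SNHG9 fell, to 0.624 and 0.632 of the Ctrl level. Calls required a log2 FC beyond 0.5 and, in edgeR's quasi-likelihood test, an adjusted p (Benjamini-Hochberg over all genes tested) under 0.05. By this rule 4 of 27 tested hosts were higher (14.8%) and 2 lower (7.41%), where 10.4% and 6% of all 14134 genes tested were. These shares are near the background. By sign alone 17 hosts were lower and 10 higher, and the median log2 FC was −0.10 against 0.04 over all genes. This balance turned with the scaling, since with plain library sizes in place of the TMM factors 13 of 27 were lower and the median was 0.0060 against 0.14 over all genes. Bulk libraries cannot tell fewer cells with an RNA from less of it per cell.

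GAS5, which hosts 11 RefSeq snoRNAs, most of them box C/D, and whose RNA is known to accumulate in cells that stop growing, changed most. It is annotated at chr1:173858559-173868882, minus strand (GRCh38, as all gene positions here), identifier ENSG00000234741. In Input Ctrl libraries 1 to 4 it measured 560.5, 410.1, 542 and 512 CPM, and in Input siRNAG5 1086, 1154, 961 and 1019 CPM. Every siRNAG5 library lay above every Ctrl library, with a log2 FC of 1.08 (SE 0.08, adjusted p = 3.27e-11).

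SNHG32, at chr6:31834608-31839766, plus strand, hosts SNORD48 and SNORD52 and has the RefSeq start shown above. It measured 124, 98.3, 112 and 112 CPM in Input Ctrl and 242, 213, 186 and 205 CPM in Input siRNAG5. The groups lay far apart, with a log2 FC of 0.94 (SE 0.08, adjusted p = 4.52e-12). EPB41L4A-AS1, at chr5:112160526-112164818, plus strand, hosts SNORA13 and is antisense to EPB41L4A. Its Input levels were 71.7, 62.3, 70.9 and 75.2 CPM in Ctrl and 142, 125, 115 and 115 CPM in siRNAG5, giving a log2 FC of 0.84 (SE 0.07, adjusted p = 1.91e-11). SNHG1, at chr11:62851978-62855953, minus strand, hosts SNORD22 and the run from SNORD25 to SNORD31. It measured 111, 90.7, 103 and 106 CPM in Input Ctrl and 181, 187, 166 and 182 CPM in Input siRNAG5, a log2 FC of 0.82 (SE 0.07, adjusted p = 4.70e-12). For all 3, as for GAS5, the lowest siRNAG5 library stood above the highest Ctrl library.

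DANCR and SNHG9 went the other way. DANCR, at chr4:52712325-52723623, plus strand, hosts SNORA26 and is named for its part in holding back differentiation. It measured 199.6, 206, 212 and 186 CPM in Input Ctrl and 123, 117, 134 and 122 CPM in Input siRNAG5, a log2 FC of −0.68 (SE 0.07, adjusted p = 1.69e-10). SNHG9, at chr16:1964895-1965509, plus strand, is a short host of SNORA78. Its Input levels were 28.6, 30.5, 29.1 and 27 CPM in Ctrl and 18.7, 17.04, 21.4 and 14.9 CPM in siRNAG5, a log2 FC of −0.66 (SE 0.10, adjusted p = 1.13e-06). Neither gene overlapped between the groups. When all 16 libraries were fitted together SNHG9 was no longer called, and DANCR was.

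The other 4 of the 6 most abundant hosts were not called in Input. SNHG29, host of SNORD49A, SNORD49B and SNORD65, measured 781, 719.8, 724 and 734 CPM in Input Ctrl and 1020.3, 917, 868 and 797 in Input siRNAG5. Its log2 FC of 0.30 (SE 0.06, adjusted p = 0.000326) was past the p threshold but inside the fold limit. SNHG5, host of SNORD50A and SNORD50B, measured 709, 709, 719 and 656 CPM in Ctrl and 703, 679.6, 689 and 633 in siRNAG5, and these ranges overlapped, with a log2 FC of −0.03 (SE 0.06, adjusted p = 0.704). SNHG16, host of the SNORD1 family, had 176, 159, 156 and 172 CPM in Ctrl and 212, 189.8, 189.7 and 162 in siRNAG5, a log2 FC of 0.20 (SE 0.07, adjusted p = 0.0258). SNHG7, host of SNORA17A and SNORA17B, had 146, 137, 146 and 149.8 CPM in Ctrl and 239, 178, 169 and 164 in siRNAG5, a log2 FC of 0.39 (SE 0.09, adjusted p = 0.00251). Both of the last 2 had an adjusted p under 0.05 and stayed under the fold limit, and SNHG7 was highest in siRNAG5 library 1.

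Among the 21 hosts not called in Input the log2 FC ran from −0.39 for SNHG17 to 0.40 for SNHG6. SNHG6, host of SNORD87, and ZFAS1, host of the SNORD12 family, stood at 0.40 (SE 0.07) and 0.40 (SE 0.12). SNHG11, SNHG17, SNHG3, SNHG30 and SNHG8 stood between −0.39 and −0.28 with groups that did not overlap. In all, groups were apart for 7 hosts in each direction, where this held for 19.1% of all genes on the lower side and 15.1% on the higher side. The hosts of few reads, SNHG20, SNHG21, SNHG25, SNHG26 and SNHG4, had standard errors of 0.18 to 0.36, so that changes inside the fold limit could not be seen for them at this depth. With Input Ctrl 3 and 4, which carried the liver reads, left out, the 6 called hosts remained called and ZFAS1 was called higher as well.

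**Figure D2:**
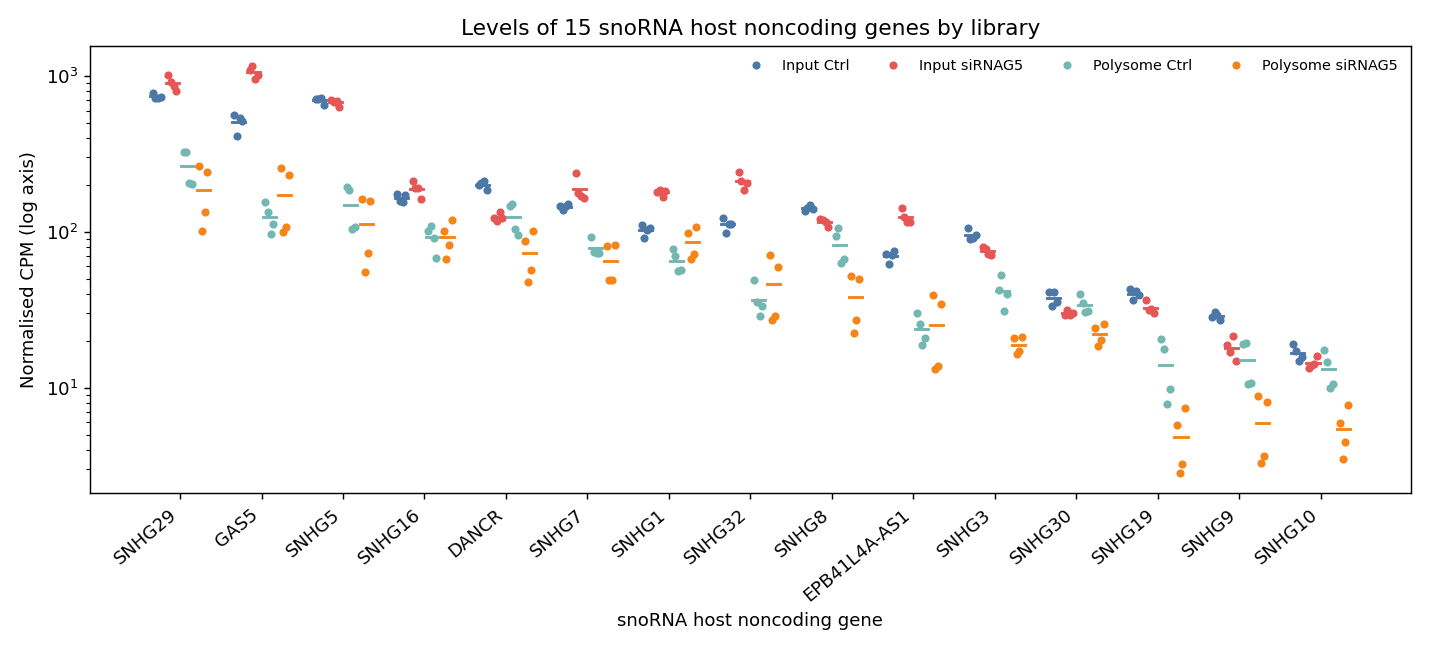
Normalised CPM (vertical log axis) of 15 snoRNA host noncoding genes (horizontal axis) in each of the 16 libraries. Points are libraries, coloured by group, and short lines are group means. GAS5, SNHG32, EPB41L4A-AS1 and SNHG1 lie higher in Input siRNAG5 than in Input Ctrl, DANCR and SNHG9 lie lower, and most hosts lie lower in Polysome than in Input.

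The second comparison makes the same contrast in the pooled polysome fractions. SNHG19, SNHG9, SNHG10, SNHG3, SNHG8 and SNHG30 fell, to between 0.350 and 0.664 of the Ctrl level, and no host rose. The 6 lower calls are 23.1% of the 26 hosts tested, where 3.81% of all 14420 genes tested were called lower and 3.88% higher. Groups were apart for 7 hosts on the lower side and 0 on the higher side, where this held for 10% and 8.29% of all genes. The log2 FC was negative for 20 hosts, with a median of −0.43 against 0.03 over all genes. With plain library sizes it was negative for 16 of 26, with a median of −0.09 against 0.38 over all genes. Cytosolic ribosomal protein genes, many of which also host snoRNAs, had 10 of 85 called lower, none higher, and a median of −0.80. The 1122 other long noncoding RNAs had 26 called lower and 39 higher, with a median of 0.10. The 193 other protein-coding snoRNA hosts had 9 lower and 7 higher, with a median of 0.02.

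SNHG19, a short host of SNORD60 at chr16:2154792-2155405, minus strand, fell most. It measured 20.7, 17.8, 7.87 and 9.84 CPM in Polysome Ctrl libraries 1 to 4 and 5.79, 2.85, 3.26 and 7.38 CPM in Polysome siRNAG5. No siRNAG5 library reached the lowest Ctrl library, Ctrl 3, with a log2 FC of −1.51 (SE 0.37, adjusted p = 0.0335). Its Input levels were 42.8, 36.5, 41.8 and 39.4 CPM in Ctrl and 36.6, 31.5, 32.2 and 30.2 CPM in siRNAG5, a log2 FC of −0.28 (SE 0.08).

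SNHG3, at chr1:28505980-28510892, plus strand, hosts SNORA73A and SNORA73B, snoRNAs known from 18S ribosomal RNA processing. It measured 42.1, 52.7, 31.2 and 40.2 CPM in Polysome Ctrl and 20.96, 16.5, 17.2 and 21.1 CPM in Polysome siRNAG5, with a log2 FC of −1.09 (SE 0.18, adjusted p = 0.00846). In Input it measured 105, 89.5, 90.7 and 95.9 CPM in Ctrl and 80.5, 77.97, 72.5 and 70.95 CPM in siRNAG5. The siRNAG5 libraries were close to each other and all below Ctrl in both fractions. SNHG3 overlaps RCC1 on the same strand, reads shared by both were not counted, and RCC1 itself was called lower in Polysome with a log2 FC of −0.65 (SE 0.15), so the split between the 2 genes is uncertain. SNHG3 was the only one of the 6 that stayed called in each of the 8 fits that left out 1 library.

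SNHG10, host of the Cajal body RNA SCARNA13 at chr14:95521943-95534889, minus strand, measured 17.6, 14.6, 9.94 and 10.6 CPM in Polysome Ctrl and 5.94, 3.5, 4.49 and 7.75 CPM in Polysome siRNAG5. The groups did not overlap, and the log2 FC was −1.25 (SE 0.27, adjusted p = 0.0211). In Input the same gene overlapped, with 19.2, 17.1, 14.9 and 15.6 CPM in Ctrl and 13.4, 14.02, 14.1 and 15.99 CPM in siRNAG5 and a log2 FC of −0.20 (SE 0.11). SNHG8, host of SNORA24 at chr4:118278703-118285316, plus strand, measured 94.1, 106, 63.5 and 66.6 CPM in Polysome Ctrl and 52.3, 22.5, 27.2 and 50.04 CPM in Polysome siRNAG5, a log2 FC of −1.09 (SE 0.28, adjusted p = 0.0408). Its Input levels of 137, 142, 149 and 139.8 CPM in Ctrl and 121, 119.9, 115 and 108 CPM in siRNAG5 gave a log2 FC of −0.28 (SE 0.07). For SNHG8 too the groups were apart in both fractions.

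SNHG9 measured 19.1, 19.4, 10.6 and 10.8 CPM in Polysome Ctrl and 8.81, 3.31, 3.67 and 8.12 CPM in Polysome siRNAG5, with a log2 FC of −1.30 (SE 0.35, adjusted p = 0.0447). It was the one host called in both fractions, in the same direction. SNHG30, host of SNORD7 at chr17:35568050-35574900, plus strand, measured 39.97, 35.02, 30.5 and 31 CPM in Polysome Ctrl and 24.1, 18.5, 20.2 and 25.5 CPM in Polysome siRNAG5, and its log2 FC of −0.59 (SE 0.16, adjusted p = 0.0442) was near both limits. In Input SNHG30 measured 41.4, 33.5, 41.3 and 35.3 CPM in Ctrl and 29.2, 31.4, 29.1 and 30.1 CPM in siRNAG5. Just outside the call was SNHG26, host of SNORD93, at −1.35 (SE 0.40, adjusted p = 0.0591) on few reads.

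The 4 hosts that rose in Input were not called in Polysome. GAS5 measured 154, 134, 97.1 and 112 CPM in Polysome Ctrl and 256, 100.2, 107 and 230.5 CPM in Polysome siRNAG5, so that siRNAG5 libraries 1 and 4 stood above all Ctrl libraries and 2 and 3 within their range. Its log2 FC was 0.51 (SE 0.30, adjusted p = 0.293). SNHG32 had 49.05, 35.7, 28.8 and 33.2 CPM in Polysome Ctrl and 71.3, 27.1, 28.7 and 59.2 in Polysome siRNAG5, a log2 FC of 0.38 (SE 0.31, adjusted p = 0.454). There siRNAG5 1 and 4 stood above all Ctrl libraries and 2 and 3 below them. EPB41L4A-AS1 had 30.2, 25.5, 18.8 and 20.9 CPM in Polysome Ctrl and 39.4, 13.2, 13.7 and 34.3 in Polysome siRNAG5, a log2 FC of 0.11 (SE 0.34, adjusted p = 0.868). SNHG1 had 77.1, 69.6, 56.4 and 57.04 CPM in Polysome Ctrl and 98.3, 67.02, 72.3 and 107 in Polysome siRNAG5, a log2 FC of 0.44 (SE 0.18, adjusted p = 0.149). Ctrl and siRNAG5 overlapped for each of the 4.

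Of the other abundant hosts, DANCR measured 147, 149.8, 104 and 95.7 CPM in Polysome Ctrl and 87.2, 47.3, 56.7 and 101 CPM in Polysome siRNAG5, with a log2 FC of −0.73 (SE 0.25, adjusted p = 0.0883), close to its Input value. SNHG29 measured 326, 326, 206 and 202 CPM in Polysome Ctrl and 263, 101, 135 and 241 CPM in Polysome siRNAG5, a log2 FC of −0.49 (SE 0.30, adjusted p = 0.325). Both pairs of groups overlapped. SNHG5 had 194, 185, 104 and 108 CPM in Polysome Ctrl and 162, 55.4, 73.1 and 157 in Polysome siRNAG5, a log2 FC of −0.37 (SE 0.35). SNHG16 had 101, 109, 91.6 and 67.9 CPM in Polysome Ctrl and 101, 67.4, 82.4 and 119 in Polysome siRNAG5, a log2 FC of 0.04 (SE 0.20). SNHG7 had 92.7, 74.5, 72.95 and 72.9 CPM in Polysome Ctrl and 81.2, 48.96, 49.4 and 82.1 in Polysome siRNAG5, a log2 FC of −0.22 (SE 0.20). These 3 pairs overlapped as well. ZFAS1, which stood higher in Input siRNAG5, had a Polysome log2 FC of −0.58 (SE 0.27, adjusted p = 0.188). SNHG12, SNHG4 and SNHG17 stood at −0.67, −0.82 and −0.48 without a call, SNHG11, SNHG15, SNHG20, SNHG21 and CYTOR between −0.37 and −0.15, and SNHG6 at 0.02. SNHG25 had too few reads for a test in Polysome.

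Libraries of 1 Polysome group differed from each other in a way that crossed the treatments. Among the 27 hosts with at least 60 reads, Polysome Ctrl 1 and 2 both stood above Ctrl 3 and 4 for 23, siRNAG5 1 and 4 both stood above 2 and 3 for 24, and both held for 21 (77.8%). Over all 16505 genes with that many reads both held for 19.6%, and over ribosomal protein genes for 76 of 86 (88.4%). The labels do not give these pairs, which follow the order of the summed host level in the same libraries. The host counts are therefore a description and not a test of the split. edgeR estimated a biological coefficient of variation of 0.216 for Polysome and 0.0806 for Input, and what set these libraries apart was not tested. The number of hosts called lower in Polysome moved with the libraries used. It was 2, 1 and 3 without Ctrl 1, 2 and 4, and 2 and 1 without siRNAG5 2 and 3. Over all genes the lower calls went from 549 to 409, 107 and 303, and to 240 and 233, in these fits. Without Ctrl 3, siRNAG5 1 and siRNAG5 4, 5, 4 and 6 of the 6 host calls were kept, with 558, 241 and 810 genes lower. With 1 surrogate variable in the fit 10 hosts were lower, where 1423 of 14420 genes were lower and 1565 higher. That fit also called GAS5 higher (log2 FC 0.53, adjusted p = 0.000366). With plain library sizes SNHG9 (−0.96) and SNHG30 (−0.25) lost their Polysome call, and GAS5 (0.83) and SNHG1 (0.78) were called higher. Over all 14420 genes 201 were then called lower and 2228 higher.

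**Figure D3:**
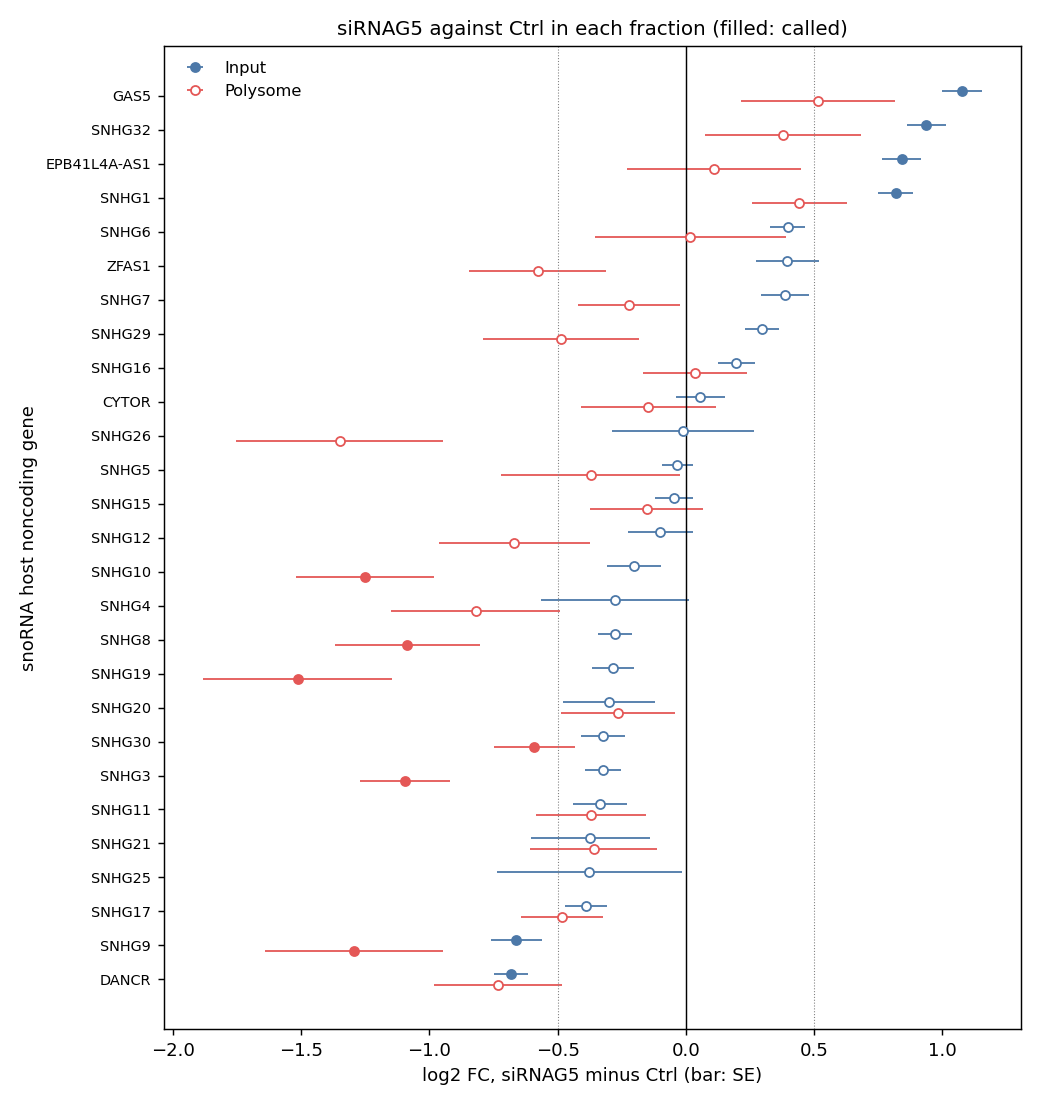
log2 FC of siRNAG5 against Ctrl (horizontal axis, bars are SE) for the tested snoRNA host noncoding genes (vertical axis, ordered by the Input value), in Input (blue) and Polysome (red). Filled points were called and dotted lines mark the fold limit. Calls in Input lie at both ends, calls in Polysome lie on the lower side, and the Polysome errors are wider. With plain library sizes GAS5 and SNHG1 are called higher in Polysome.

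The third comparison subtracts the Input change from the Polysome change, in one fit of all 16 libraries. No host was called, and over all 14958 genes tested edgeR called none in either direction (0%). At an unadjusted p under 0.05 and past the fold limit, 515 genes were lower and 273 higher. DESeq2 called 11 lower and 18 higher. The estimate was negative for 25 of the 27 hosts, with a median log2 difference of −0.58 against −0.06 over all genes, −0.78 for 85 ribosomal protein genes and −0.10 for 1263 other long noncoding RNAs. The largest were SNHG26 at −1.35 (SE 0.51, adjusted p = 0.534), SNHG19 at −1.25 (SE 0.38, adjusted p = 0.481), SNHG10 at −1.07 (SE 0.29, adjusted p = 0.41) and ZFAS1 at −0.995 (SE 0.31, adjusted p = 0.484). GAS5, SNHG32, EPB41L4A-AS1 and SNHG1 stood at −0.58 (SE 0.34), −0.58 (SE 0.34), −0.75 (SE 0.37) and −0.40 (SE 0.20). DANCR, at −0.07 (SE 0.27), was near 0. At an unadjusted p under 0.05, with or without the fold limit, there were 8 hosts, all lower, namely SNHG3, SNHG10, SNHG19, ZFAS1, SNHG8, SNHG7, SNHG26 and SNHG29. Among the hosts DESeq2 called SNHG3 alone. The fit without a filter on low counts called SNHG10 alone, where 11 of 29591 genes were lower and 5 higher. With 1 surrogate variable SNHG10, SNHG19, SNHG3, SNHG8 and ZFAS1 were called lower, where 486 of 14958 genes were lower and 92 higher. Only 18 of 27 host estimates were then negative. The count of negative estimates was also 18 with plain library sizes, where the median of all genes was 0.21 and that of the hosts −0.32.

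The last 2 comparisons set Polysome against Input within each treatment. They give the relative level of each host RNA in the pooled polysome fractions against the lysate, and not its position or share in the gradient. Both use libraries of the comparisons above and are not independent of them. In Ctrl cells 18 of 26 hosts were lower in Polysome and none higher, a share of 69.2% where 18.8% of all 13666 genes were lower and 20.9% higher. In siRNAG5 cells 22 of 27 were lower and none higher, a share of 81.5% where 21.1% of all 14795 genes were lower and 23.9% higher. The median log2 FC of the hosts was −0.85 in Ctrl and −1.53 in siRNAG5, against −0.03 and −0.04 over all genes. Groups were apart for 19 hosts in Ctrl and 23 in siRNAG5, all lower, where this held for 23.2% of all genes lower and 21.2% higher in Ctrl and for 27.5% and 22.9% in siRNAG5. With TMM scaling every tested host was negative in both treatments, and with plain library sizes 19 of 26 and 20 of 27 were. Plain library sizes kept 10 of the 18 calls in Ctrl and 16 of the 22 in siRNAG5, with host medians of −0.32 and −0.83 against 0.51 and 0.69 over all genes. Over all genes the lower calls fell from 2571 to 761 in Ctrl and from 3126 to 790 in siRNAG5. DANCR, SNHG1, SNHG15 and SNHG16 lost their call in both treatments, SNHG26, SNHG7, SNHG8 and SNHG9 in Ctrl, and SNHG17 and SNHG4 in siRNAG5.

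SNHG6, SNHG5 and GAS5 were the most reduced in Ctrl cells. SNHG6 had 164, 148, 161 and 136 CPM in Input Ctrl and 36.1, 40.3, 23.3 and 25.3 CPM in Polysome Ctrl, with a log2 FC of −2.27 (SE 0.17, adjusted p = 4.00e-08). SNHG5, with the Input and Polysome values given above, had −2.23 (SE 0.20, adjusted p = 2.30e-07), and GAS5 had −2.01 (SE 0.17, adjusted p = 1.12e-07). No Polysome library of these 3 hosts reached its lowest Input library. SNHG12, SNHG32, EPB41L4A-AS1, SNHG19 and SNHG29 followed, from −1.65 to −1.47. SNHG3 and ZFAS1 stood at −1.19 (SE 0.15) and −1.07 (SE 0.20), and SNHG9, SNHG7, SNHG26, SNHG16, SNHG15, SNHG8, DANCR and SNHG1 between −0.93 and −0.64. The call of SNHG26 was the least firm of these, with overlapping groups and an adjusted p of 0.0487 in edgeR's test, and it held in 2 of 8 fits that left out 1 library and in none of the fits with DESeq2, RLE size factors, no filter or without the liver-read libraries.

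In siRNAG5 cells SNHG19 was the most reduced, with a log2 FC of −2.69 (SE 0.25, adjusted p = 6.50e-06). SNHG6 and GAS5 followed at −2.62 (SE 0.34) and −2.53 (SE 0.28), then SNHG5 at −2.52 (SE 0.30). SNHG25, which had too few reads for this test in Ctrl cells, had −2.29 (SE 0.55, adjusted p = 0.00414) on 156 reads over the 16 libraries. SNHG10 was not called in Ctrl cells, at −0.33 (SE 0.18), and was called in siRNAG5 cells, at −1.34 (SE 0.21). SNHG4 likewise passed only in siRNAG5 cells, at −1.26 (SE 0.31) after −0.75 (SE 0.33), and SNHG17 at −0.53 (SE 0.14) after −0.48 (SE 0.12). The difference between treatments is the third comparison, which called none of them.

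At the other end, CYTOR, SNHG11, SNHG20, SNHG21 and SNHG30 were called in neither treatment. SNHG30 had −0.14 (SE 0.13) in Ctrl and −0.36 (SE 0.12) in siRNAG5, SNHG11 −0.36 (SE 0.15) and −0.35 (SE 0.17), and CYTOR −0.35 (SE 0.16) and −0.51 (SE 0.22). The absence of a call does not show that their levels in Polysome and Input are equal. CYTOR has a near-identical copy, MIR4435-2HG, and reads that fit both equally align to several places and were not counted. SNHG20 overlaps SEC14L1 on its strand and SNHG4 overlaps MATR3, so their counts rest on what is left outside the shared parts.

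**Figure D4:**
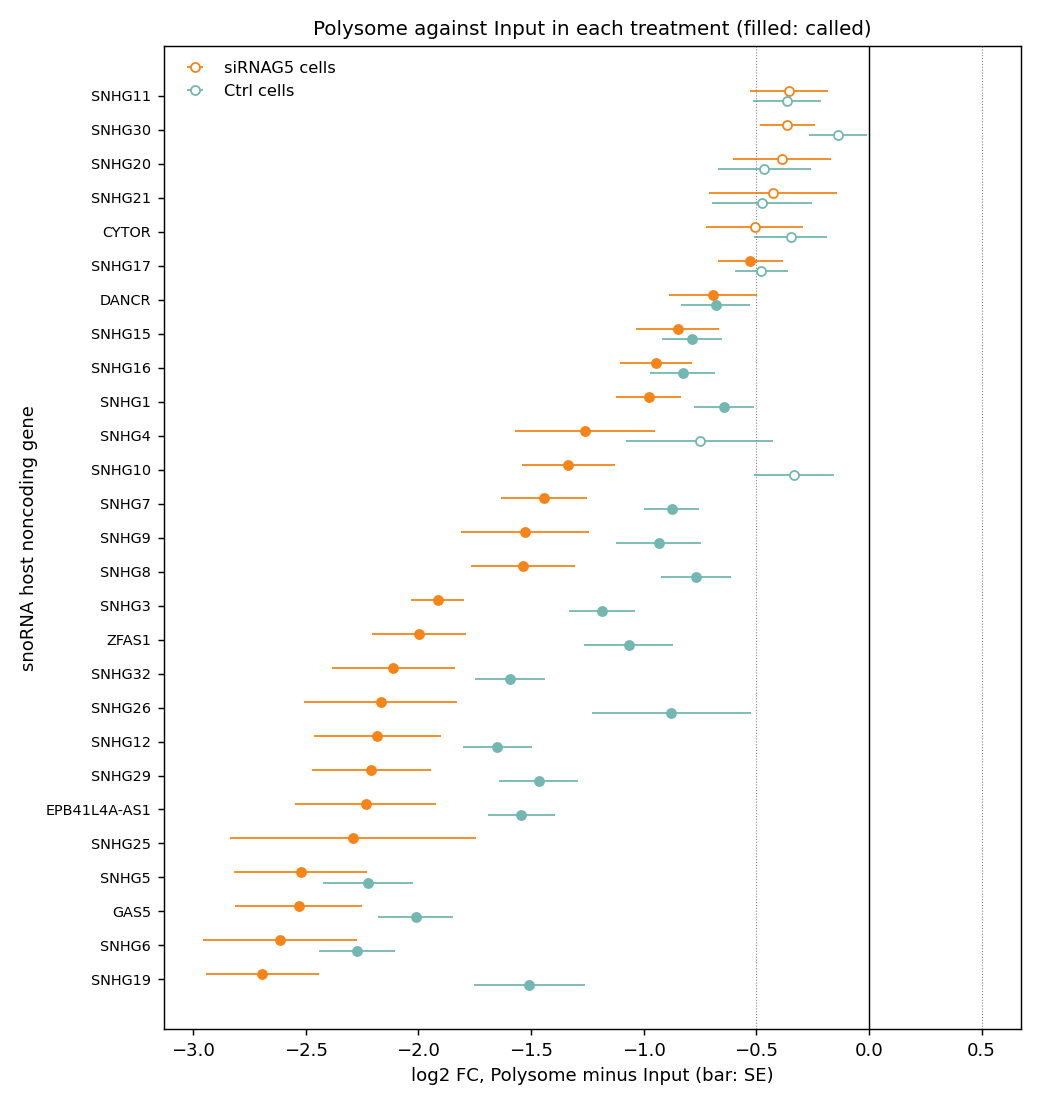
log2 FC of Polysome against Input (horizontal axis, bars are SE) for the tested snoRNA host noncoding genes (vertical axis, ordered by the siRNAG5 value), in Ctrl cells (teal) and siRNAG5 cells (orange). Filled points were called and dotted lines mark the fold limit. All points lie below 0 with TMM scaling, from SNHG11 near −0.35 to SNHG19 at −2.69 in siRNAG5 cells, while 19 of 26 and 20 of 27 do with plain library sizes.

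Ribosomal protein genes were lower in Polysome than in Input as well, 75 of 85 in Ctrl cells with a median of −0.98 and 80 of 85 in siRNAG5 cells with a median of −1.69. Of the 28 among them that host a snoRNA, 28 and 27 were lower. The other protein-coding snoRNA hosts had 43 lower and 39 higher of 186 in Ctrl cells and 44 and 46 of 195 in siRNAG5 cells, with medians of −0.06 and 0.00. Other long noncoding RNAs had medians of −0.18 and −0.24. Among the noncoding hosts, the 6 with a pyrimidine tract at the RefSeq start had a median of −1.55 in Ctrl and −2.15 in siRNAG5, with 5 and 6 called lower. The 17 with a RefSeq start and no such tract had −0.68 and −0.98, with 10 and 12 called lower, and the ranges of both sets overlapped. SNHG6, SNHG9, SNHG15 and SNHG25 had no RefSeq start sequence and are in neither set. SNHG6 was the most reduced of all tested hosts in Ctrl (−2.27), and has no tract at its GENCODE start. In the third comparison these sets had medians of −0.59 and −0.40, and in Input −0.07 and −0.20. Split by the GENCODE start instead, the 4 hosts with a tract (GAS5, SNHG12, SNHG29 and ZFAS1) were called lower in Polysome than in Input in both treatments, with medians of −1.56 in Ctrl and −2.20 in siRNAG5, while the others had −0.78 with 14 of 22 called and −1.34 with 18 of 23 called. Over the hosts, Spearman's rho between the Polysome against Input log2 FC and the canonical transcript length was 0.0660 in Ctrl (n = 26) and 0.104 in siRNAG5 (n = 27), and with the mean CPM −0.417 and −0.237. These are descriptions over genes that share the same libraries.

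Genes of the pathways in which the hosts take part were read in the same fits. Of 16 proteins that bind or assemble snoRNAs, 5 were lower in Input (31.2%, where 6% of all genes tested were) and none higher, with a median log2 FC of −0.39. They were NOP56, a core box C/D protein (−0.98, SE 0.06), NUFIP1, an assembly factor (−0.69, SE 0.11), the H/ACA proteins NOP10 (−0.62, SE 0.06) and NHP2 (−0.60, SE 0.06), and SNU13, which binds the kink-turn of C/D RNAs (−0.55, SE 0.06). FBL, the methyltransferase of box C/D particles, stood at −0.01 (SE 0.06) and DKC1, the pseudouridine synthase of H/ACA particles, at −0.36 (SE 0.07). In Polysome none of the 16 was called, with a median of −0.30. Of 18 NMD factors, NBAS rose in Input (0.96, SE 0.12) and RBM8A, of the exon junction complex, fell (−0.54, SE 0.07). The 1 call in each direction is 5.56% of these factors, where 10.4% of all genes tested were higher and 6% lower. UPF1, the central NMD helicase, stood at 0.40 (SE 0.11) inside the fold limit. None of the 18 was called in Polysome. Of the ribosomal protein genes, 3 were lower and 1 higher of 85 in Input, with a median of −0.03.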

How the data were processed

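RNA-seq of 16 HEK293 libraries, 4 per group, was read as deposited. The libraries were stranded and poly(A)-selected. The authors aligned reads with STAR (2.5.3a in the submitters' processing notes) to GRCh38 and used QoRTs to obtain a raw count for each Ensembl gene, which they deposited as 1 table per library. The table's lines for reads aligned to several places (4.88 to 42.4% of a library), to more than 1 gene (4.14 to 7.41%) or to no gene (0.667 to 1.33%) were kept out of library sizes and tests. GENCODE v44 (GRCh38) named 57532 of the 58302 identifiers.

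Groups came from the sample titles. The study describes 4 independent biological samples per condition, and the labels do not say which Input and Polysome libraries share a lysate. Counts were tested in R 4.3.3 with the quasi-likelihood F test of edgeR 4.0.16, after filterByExpr and with TMM factors, for each fraction alone, for each treatment alone, and over all 16 libraries for the difference between fractions. SE is the log2 FC divided by the square root of F. Levels are CPM with TMM factors over all 16 libraries. Start sequences are those of RefSeq (GRCh38.p14) or, where said, of the GRCh38 genome at the GENCODE canonical start. Tables and plots were made with Python 3.11.15, pandas 2.3.3, numpy 2.4.6 and matplotlib 3.10.9.

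The host genes and related lists were chosen with earlier results of these data known, and the marker and pathway lists likewise. Values per library are given for the hosts called in siRNAG5 against Ctrl in either fraction and for the 6 with the highest mean CPM. Hosts outside that rule were named with their log2 FC, SNHG6 with its libraries as well, and SNHG6, SNU13, FBL, DKC1 and UPF1 were picked after their values were seen. Alternatives were DESeq2 1.42.0, RLE size factors, no filter, the unadjusted p, the replicate block, all libraries in one fit, 1 surrogate variable (sva 3.50.0) and each library left out. Plain library sizes and leaving out both Input Ctrl libraries with liver reads were added after seeing the data. The fits were first tested on simulated counts with known changes. Same-numbered libraries of 2 groups did not deviate together throughout. Correlations ran from −0.53 to 0.48 between Ctrl and siRNAG5 of 1 fraction. Between Input and Polysome of 1 treatment they ran from −0.21 to 0.22. The main fits did not pair libraries by number. These correlations do not show that Input and Polysome libraries are unpaired, and the replicate block was run as an alternative.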

Additional observations from a re-analysis of the deposited data

Results flagged for a closer look

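In 108 sets of 4 libraries (27 hosts in 4 groups), 3 values lay apart from the other 3 libraries of their group by more than Dixon's 95% critical value for the gap over the range, where chance gives about 1 in 20. SNHG5 measured 656 CPM in Input Ctrl 4, below 709 to 719 in the other 3. SNHG7 measured 92.7 CPM in Polysome Ctrl 1, above 72.9 to 74.5. SNHG4 measured 0.820 CPM in Polysome siRNAG5 1, above 0.412 to 0.462. For siRNAG5 against Ctrl none of these 3 genes was called in the fraction concerned, and leaving out that library brought no call for it.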

How the results depend on the processing

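Precision is limited by 4 libraries per group and, in Polysome, by their spread. In Input no call was lost under any alternative run, except that 1 host in place of 2 was lower when all 16 libraries were fitted together (SNHG9 lost its call). SNHG6 was added with plain library sizes and ZFAS1 without the liver-read libraries, and leaving out a library gave 2 lower and 4 higher each time. In Polysome, 10 hosts in place of 6 were lower with the unadjusted p, with all libraries in one fit and with 1 surrogate variable. Over all genes these settings gave 1338, 1520 and 1423 lower in place of 549, so the background rose as well. Leaving out a library gave 1 to 8 hosts lower, and 107 to 810 genes over all. With 1 surrogate variable 1 host was higher in Polysome, and with plain library sizes 2 were, where 1565 and 2228 of all genes were higher. For the difference between fractions, where none was called, DESeq2 and the fit without a filter each called 1 host lower, the unadjusted p 8 and 1 surrogate variable 5. Over all genes these settings called 11, 11, 515 and 486 lower. Plain library sizes left 10 of 18 hosts lower in Polysome than in Input in Ctrl, where 761 in place of 2571 of all genes were lower. They turned the siRNAG5 value of DANCR to 0.015 and of SNHG17 to 0.19, both without a call. They moved the median log2 FC of all genes there to 0.51 in Ctrl and 0.69 in siRNAG5, by construction of the scaling. Leaving out a library gave 17 to 21 lower in Ctrl and 21 to 23 in siRNAG5.

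With the replicate block, 2 hosts were lower and 4 higher in Input, 5 lower in Polysome (SNHG30 lost its call), none for the difference, and 18 and 23 lower in Polysome against Input in Ctrl and siRNAG5. Not every library correlated best with its own number.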
